A study of Mus musculus with 8 samples.

Results

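Tumor necrosis factor (Tnf), its receptors Tnfrsf1a and Tnfrsf1b, the adaptor Tradd, the TNF receptor-associated factors Traf1 and Traf2, the inhibitors of apoptosis Birc2 and Birc3, and the kinases Ripk1 and Ripk3 were taken by name from a table of gene expression in mouse macrophages. They are 10 of the 23761 genes that the table lists. All 10 had a mean FPKM of at least 1 over the libraries and were therefore among the 10920 genes tested. The unit FPKM relates the fragments of a gene to its length and to the size of the library. It allows levels to be set side by side between genes, while differences between libraries also depend on how each library was scaled, and several values below changed with a correction for GC content and length.

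RNA-sequencing was performed on bone marrow-derived macrophages (BMDMs), which develop from marrow progenitors in culture medium that L929 fibroblasts have conditioned. The mice were 3 months old and of C57BL/6J background, 4 in each group, with total RNA of each mouse sequenced as one library. Control (LysM) mice had the genotype LysM Cre/Cre, and K2KO mice carried LysM Cre/Cre together with KLF2 flox/flox, so the Cre recombinase at the lysozyme M gene, which is active in myeloid cells, was shared by both groups. The sample descriptions mark all libraries as vehicle, and no library received a TNF or LPS (lipopolysaccharide) stimulus that the labels name. KLF2 is a zinc-finger transcription factor that restrains inflammatory activation of myeloid cells, and the comparison asks which transcripts differ between macrophages of these genotypes at rest.

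TNF is made as a membrane-bound trimer that is cut from the cell surface, and macrophages are its main source. TNFR1 (Tnfrsf1a) has a death domain and recruits TRADD and RIPK1, which in turn bring TRAF2 and the ubiquitin ligases cIAP1 (Birc2) and cIAP2 (Birc3). Ubiquitin chains on this complex lead to NF-κB and MAP kinase signaling, and when they are missing RIPK1 can instead form complexes with caspase-8 or RIPK3 that kill the cell. TNFR2 (Tnfrsf1b) lacks a death domain and binds TRAF2 directly, with TRAF1 as a partner that itself is induced by NF-κB.

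The regulatory sequences of Traf1 and Tnf are shown because these genes had the largest differences in either direction among the 10. The stretches are the 250 bases before the RefSeq transcription start in GRCm38.p6, both on the minus strand, at chr2:34961773-34962022 for Traf1 and chr17:35202008-35202257 for Tnf. Capitals mark CACCC or its reverse complement GGGTG, the core of the boxes that KLF proteins bind, and in Tnf also TATAAA.
Traf1: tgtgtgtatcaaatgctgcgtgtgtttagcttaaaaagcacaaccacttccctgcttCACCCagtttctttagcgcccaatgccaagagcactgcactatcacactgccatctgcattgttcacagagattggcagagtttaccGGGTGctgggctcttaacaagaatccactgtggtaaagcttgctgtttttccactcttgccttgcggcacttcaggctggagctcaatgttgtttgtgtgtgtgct
Tnf: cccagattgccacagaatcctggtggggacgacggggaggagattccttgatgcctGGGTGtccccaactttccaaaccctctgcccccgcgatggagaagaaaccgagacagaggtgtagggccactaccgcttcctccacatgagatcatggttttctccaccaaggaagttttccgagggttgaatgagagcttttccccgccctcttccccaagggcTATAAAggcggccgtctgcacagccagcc

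The CACCC letters lie 106 and 193 bases before the start of Traf1 and 194 bases before the start of Tnf, and the TATAAA of Tnf lies 29 bases before its start. Both strands were searched in the 250 bases before each RefSeq start of the table. CACCC was found in 52.0% of 32851 windows and in 9 of the 11 windows of the genes described here, so its presence is common. TATAAA was found in 12.4% of all windows and in 1 of the 11, that of Tnf. The consensus for κB sites was found in 3.90% of all windows and in 0 of the 11, which says only that these letters are not in these windows. The 11 windows belong to 9 of the genes, all with CACCC in at least 1 window, and Tradd had no entry.

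The 3' untranslated region of Tnf, 764 bases long in GENCODE M21, holds the AU-rich element through which proteins such as tristetraprolin (Zfp36) destabilize the transcript. Its densest 30 bases, at chr17:35199679-35199708 of GRCm38 on the minus strand, are given with each ATTTA in capitals.
Tnf AU-rich stretch: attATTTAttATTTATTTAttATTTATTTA
This stretch holds 5 copies of ATTTA, counting overlapping ones. A stretch of the same length with as many copies was found in 0.274% of 20831 genes with an annotated 3' untranslated region at least as long.

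Klf2, the targeted gene (ENSMUSG00000055148, chr8:72319033-72321656), was first examined in each library. It was at 44.1, 52.9, 64.7 and 72.8 FPKM in LysM0 to LysM3, and at 45.5, 41.6, 59.2 and 59.3 FPKM in K2KO0 to K2KO3. The groups overlapped, and the log2 fold change was -0.18 (limma adjusted p = 0.460, standard error 0.17), within the spread between libraries. It was -0.31 without LysM0 (limma adjusted p = 0.178) and -0.070 without LysM3 (limma adjusted p = 0.815). With the correction for GC content and length it was -0.044 (limma adjusted p = 0.889). Coverage of single exons cannot be read from a gene-level FPKM, and because Klf2 was not clearly lower, the second group is called the libraries labelled K2KO. The digits in the library names are those of the table's columns, which give the genotype but not the mouse.

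LysM3 stood apart from the other LysM libraries. Its correlation with them across genes had a median of 0.951, where the medians of the other 7 libraries with their own groups ranged from 0.963 to 0.968. Summed FPKM were 497253 to 551608 in the LysM libraries and 448235 to 501965 in the libraries labelled K2KO (exact two-sided permutation test, p = 0.0571). How many reads stand behind each value is unknown, since the table gives none. A rough relative depth, taken from ratios between low FPKM, was 0.966 to 1.24 times that of LysM0 in the other LysM libraries and 0.953 to 1.44 times in the libraries labelled K2KO (exact two-sided permutation test between the groups, p = 0.457).

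Among the 10 genes, Traf1 and Tradd were lower in the libraries labelled K2KO, none was higher at the thresholds used, and Traf1 alone had groups that did not overlap. The thresholds were those of the study, an adjusted p under 0.05 over all tested genes and a log2 fold change above 0.26 in either direction. The 2 of 10 (20%) compare with 18.4% of all 10920 tested genes, so the share of genes called was close to the background. For genes lower in the libraries labelled K2KO the background was 8.61% and for genes higher 9.84%. Groups that did not overlap were found for 1 of the 10 genes and for 23.1% of all tested genes. The median log2 fold change of the 10 genes was -0.021, and that of all tested genes was 0.011. At an unadjusted limma p under 0.05 there were 4 of the 10, against 37.8% of all tested genes. Without LysM3, 0 of the 10 passed in limma, against 337 of all 10920 tested genes. At an unadjusted p under 0.05 there were then 3 of the 10, against 29.3% of all tested genes. Ordinary least squares on all libraries called 1 of the 10, Traf1, against 746 of all 10920 tested genes.

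**Figure D1:**
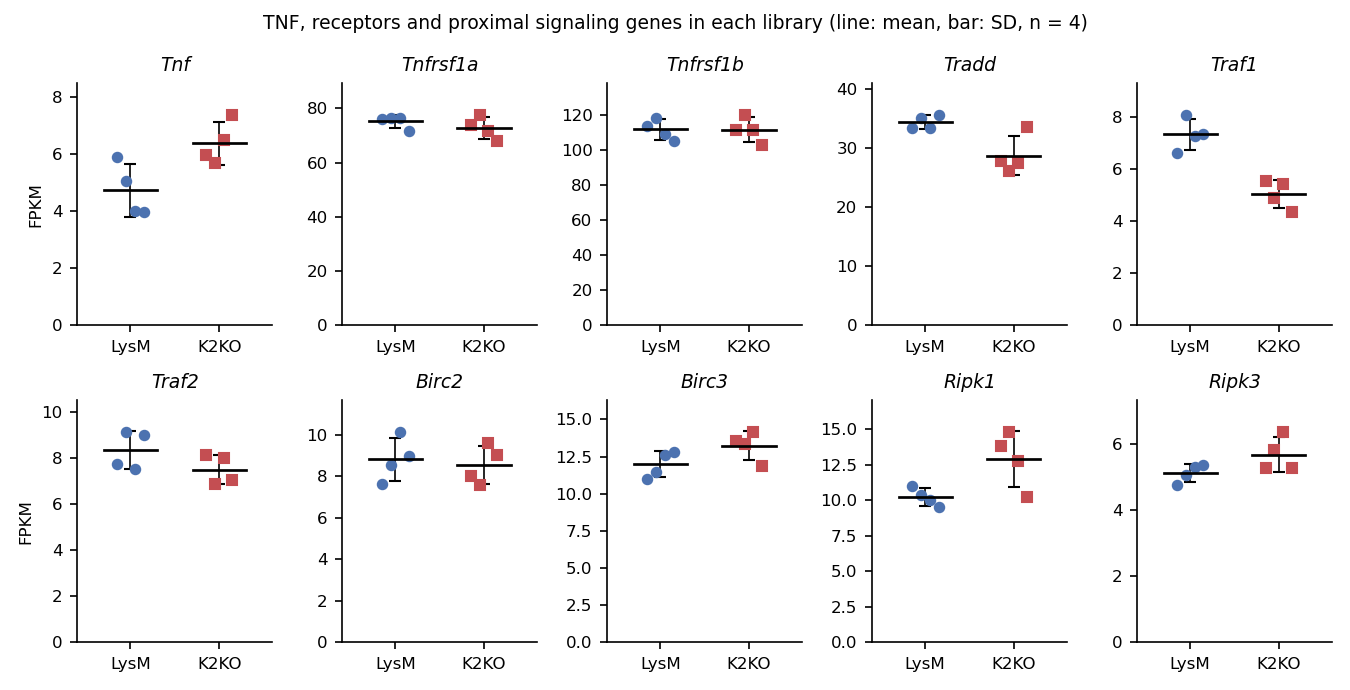
FPKM of each of the 10 genes in the 4 LysM libraries (circles) and the 4 libraries labelled K2KO (squares), with the mean as a line, the SD as a bar and each axis starting at 0. The groups of Traf1 separate fully, at 6.63 to 8.08 against 4.33 to 5.52 FPKM, and those of Tradd overlap through one library at 33.5 FPKM.

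The ligand, Tnf (ENSMUSG00000024401, chr17:35199381-35202007, minus strand), was at 5.90, 5.06, 3.99 and 3.98 FPKM in LysM0 to LysM3. The libraries K2KO0 to K2KO3 had it at 5.96, 5.68, 6.51 and 7.39 FPKM. Every library labelled K2KO was above LysM1, LysM2 and LysM3, but LysM0 was above K2KO1, so the groups overlapped by a single library. The mean was 4.73 ± 0.926 against 6.38 ± 0.751 FPKM (SD, n = 4 each), and the log2 fold change of 0.44 (95% interval 0.13 to 0.74, limma adjusted p = 0.0511) was just outside the threshold. Without LysM0 the log2 fold change was 0.55 and Tnf passed (limma adjusted p = 0.0204), and without LysM3 it was 0.36 and Tnf did not pass (limma adjusted p = 0.156). With all libraries it also passed after upper-quartile scaling, at a log2 fold change of 0.48 (limma adjusted p = 0.0399).

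Tnf ranked lowest of the 10 genes in the LysM libraries, and its range overlapped that of Ripk3, the next gene above it. In the libraries labelled K2KO it ranked above Ripk3, whose range overlapped that of Tnf, and above Traf1, whose range did not. Of all tested genes, those with the log2 levels most like Tnf over the 8 libraries were Hax1 (Pearson r = 0.979), Rap2a (r = 0.978) and Smad7 (r = 0.977). These values describe the same libraries and include the difference between the groups. Smad7, an inhibitor of TGF-β signaling, was itself higher there, rising from 1.72 to 3.46 FPKM (log2 fold change 0.99, limma adjusted p = 0.0260).

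The receptors were the most abundant of the 10 transcripts in both groups. Tnfrsf1b (ENSMUSG00000028599, chr4:145213463-145246870, minus strand), which encodes TNFR2, was at 114, 118, 109 and 105 FPKM in LysM0 to LysM3. Its levels in K2KO0 to K2KO3 were 111, 120.0, 111 and 103 FPKM. The groups covered nearly the same range, and the log2 fold change was -0.0023 (95% interval -0.15 to 0.15, limma adjusted p = 0.983).

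Tnfrsf1a (ENSMUSG00000030341, chr6:125349362-125362484, plus strand), which encodes the death domain receptor TNFR1, was at 75.9, 76.6, 76.3 and 71.7 FPKM in LysM0 to LysM3. In K2KO0 to K2KO3 it was at 73.8, 77.7, 71.8 and 68.1 FPKM. The groups overlapped, with the highest and the lowest value both among the libraries labelled K2KO. The log2 fold change was -0.046 (95% interval -0.18 to 0.088, limma adjusted p = 0.595), and it turned to 0.17 (limma adjusted p = 0.222) when each library was corrected for the GC content and length of the transcripts.

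Within each library, Tnfrsf1b exceeded Tnfrsf1a by 1.43 to 1.54 times in the LysM libraries and by 1.51 to 1.55 times in the libraries labelled K2KO. A ratio within a library does not depend on how that library was scaled. The mean ratio was 1.48 against 1.53, a log2 difference of 0.044 (exact two-sided permutation test, p = 0.114). Over the 5 ratios tested its adjusted p was 0.179, and the log2 difference became -0.13 after the GC and length correction. The ratio of ligand to receptor, Tnf to Tnfrsf1a, was 0.0622 in the LysM libraries and 0.0873 in those labelled K2KO, a log2 difference of 0.49 (exact two-sided permutation test, p = 0.0571, adjusted p = 0.143) between groups that overlapped. After the GC and length correction that difference was 0.27 (exact two-sided permutation test, p = 0.200, adjusted p = 0.250).

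Tradd (ENSMUSG00000031887, chr8:105258286-105264609, minus strand), the adaptor that joins TNFR1 to TRAF2 and RIPK1, was at 33.3, 35.1, 33.4 and 35.6 FPKM in LysM0 to LysM3. In K2KO0 to K2KO3 it was at 27.8, 26.0, 27.4 and 33.5 FPKM. Of the libraries labelled K2KO, 3 were below all LysM libraries, and K2KO3 was just above LysM0 and LysM2. The mean fell from 34.3 ± 1.20 to 28.7 ± 3.30 FPKM (SD, n = 4 each), with a log2 fold change of -0.27 (limma adjusted p = 0.0462, standard error 0.081) beside an exact two-sided permutation p of 0.0857. The log2 fold change is close to the threshold of 0.26.

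The call for Tradd did not hold under most other settings. It remained in 3 of 12 other settings and in 1 of 8 fits with a library left out, the one without K2KO3 (log2 fold change -0.34, limma adjusted p = 0.00560). The transcripts of Tradd have a GC content of 60.0%, and the 439 tested genes within 1 percentage point of it had a median log2 fold change of -0.16. Once GC content and length were corrected for, the log2 fold change of Tradd was -0.0066 (limma adjusted p = 0.928). Tradd lies 32.9 Mb from Klf2 on the same chromosome. The tested genes with log2 levels most like Tradd over the 8 libraries were Akr7a5 (Pearson r = 0.995), Mvb12a (r = 0.993) and Bola2 (r = 0.990).

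**Figure D2:**
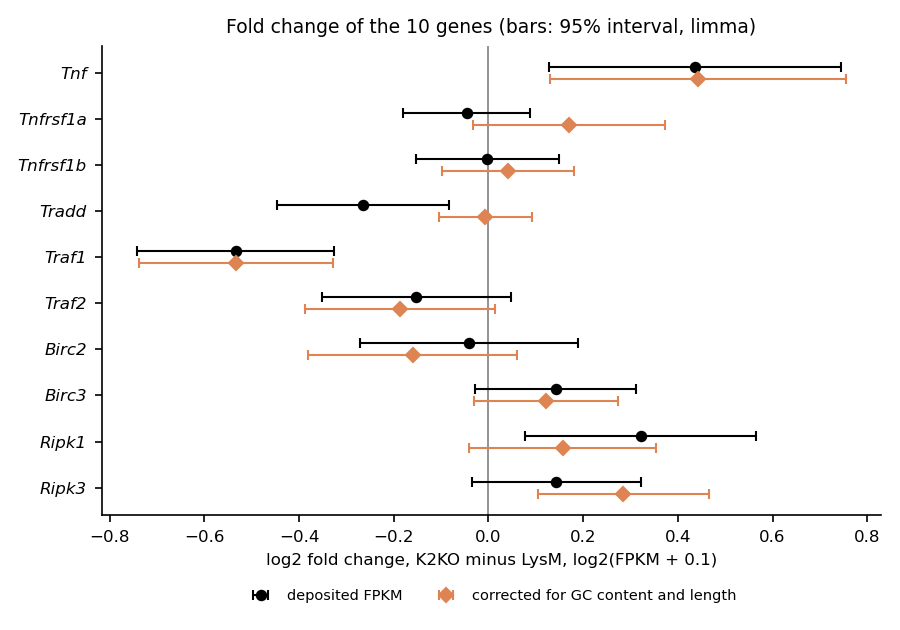
Log2 fold change (libraries labelled K2KO minus LysM, log2 of FPKM + 0.1) of the 10 genes with 95% limma intervals, from the deposited FPKM (black circles) and after correction for GC content and transcript length (orange diamonds). Traf1 stays at -0.53 under both and Tnf at 0.44, while Tradd moves from -0.27 to -0.0066.

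Traf1 (ENSMUSG00000026875, chr2:34941750-34961772, minus strand), which forms heterotrimers with TRAF2 at TNFR2 and at the complex of TNFR1, was at 6.63, 8.08, 7.26 and 7.36 FPKM in LysM0 to LysM3. In K2KO0 to K2KO3 it was at 5.52, 4.89, 5.43 and 4.33 FPKM. All libraries labelled K2KO were below all LysM libraries. The mean fell from 7.33 ± 0.597 to 5.04 ± 0.548 FPKM (SD, n = 4 each), with a log2 fold change of -0.53 (95% interval -0.74 to -0.33, limma adjusted p = 0.0115, standard error 0.093). The exact two-sided permutation p was 0.0286, the smallest that 4 against 4 libraries allow.

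Traf1 kept its call in all 12 other settings with every library in, and in 7 of 8 fits with a library left out. Without LysM3 its log2 fold change was nearly the same, -0.53, but the limma adjusted p was 0.0517. Over all these settings the log2 fold change lay between -0.61 and -0.46. The tested genes with log2 levels most like Traf1 over the 8 libraries were Padi4 (Pearson r = 0.986), Serf2 (r = 0.965) and Kank3 (r = 0.959). Padi4, a peptidyl arginine deiminase of granulocytes and macrophages, was lower as well (log2 fold change -0.69, limma adjusted p = 0.0126).

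Traf2 (ENSMUSG00000026942, chr2:25517982-25546940, minus strand), the factor that carries the cIAP proteins to both receptors, was at 7.74, 9.15, 7.55 and 9.0 FPKM in LysM0 to LysM3. In K2KO0 to K2KO3 it was at 8.12, 6.86, 8.0 and 7.04 FPKM. The groups overlapped, and the log2 fold change was -0.15 (95% interval -0.35 to 0.047, limma adjusted p = 0.232). Traf1 was thus below Traf2 in each library, at 0.817 to 0.962 times its FPKM in the LysM libraries and 0.616 to 0.713 times in the libraries labelled K2KO. The ratio of Traf1 to Traf2 had groups that did not overlap, with a log2 difference of -0.39 (exact two-sided permutation test, p = 0.0286). Adjusted over the 5 ratios the p was 0.143, so it did not pass.

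Birc2 (ENSMUSG00000057367, chr9:7818227-7837064, minus strand) encodes cIAP1, a ubiquitin ligase of RIPK1. It was at 7.62, 8.53, 10.1 and 8.95 FPKM in LysM0 to LysM3 and at 8.03, 7.58, 9.58 and 9.02 FPKM in K2KO0 to K2KO3. The groups overlapped throughout, with a log2 fold change of -0.041 (95% interval -0.27 to 0.19, limma adjusted p = 0.794).

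Birc3 (ENSMUSG00000032000, chr9:7848699-7873186, minus strand), its neighbor on the chromosome, encodes cIAP2 and is a known NF-κB target. It was at 11.0, 11.5, 12.6 and 12.8 FPKM in LysM0 to LysM3 and at 13.6, 13.3, 14.2 and 11.9 FPKM in K2KO0 to K2KO3. Of the libraries labelled K2KO, 3 were above all LysM libraries and K2KO3 was within their range. The log2 fold change of 0.14 (95% interval -0.027 to 0.31, limma adjusted p = 0.193) did not pass. Birc3 exceeded Birc2 in each library, by a mean of 1.36 times in the LysM libraries and 1.55 times in those labelled K2KO (log2 difference 0.18, exact two-sided permutation test, p = 0.143, adjusted p = 0.179).

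Ripk1 (ENSMUSG00000021408, chr13:34002363-34037147, plus strand), the kinase that decides between survival signaling and cell death at TNFR1, was at 11.0, 10.4, 10.02 and 9.52 FPKM in LysM0 to LysM3. The levels in K2KO0 to K2KO3 were 13.8, 14.8, 12.7 and 10.2 FPKM. Of the libraries labelled K2KO, 3 were above all LysM libraries, and K2KO3 was within their range. The mean was 10.2 ± 0.626 against 12.9 ± 1.97 FPKM (SD, n = 4 each), and the log2 fold change of 0.32 (95% interval 0.078 to 0.57, limma adjusted p = 0.0626) missed the threshold.

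Without K2KO3 the log2 fold change of Ripk1 was 0.43 and passed (limma adjusted p = 0.00736), and with GC content and length corrected it was 0.16 (limma adjusted p = 0.245). With all libraries Ripk1 passed in 1 of 12 other settings, the one with a block on the column number. The GC content of its transcripts is 46.4%, and the 1134 tested genes within 1 percentage point had a median log2 fold change of 0.087. Exons of Ripk1 overlap those of Gm17084 on the same strand and of Serpinb6a on the other, and the locus given in the table, from 33917918 to 34037147, is wider than the gene. The Ripk1 values are therefore uncertain, since reads of these genes may be shared.

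Ripk3 (ENSMUSG00000022221, chr14:55784995-55788865, minus strand), the kinase that triggers necroptosis through MLKL, was at 4.75, 5.06, 5.31 and 5.37 FPKM in LysM0 to LysM3. Its values in K2KO0 to K2KO3 were 5.26, 5.82, 6.37 and 5.27 FPKM. The groups overlapped, with a log2 fold change of 0.14 (95% interval -0.035 to 0.32, limma adjusted p = 0.210). With GC content and length corrected it was 0.29 (limma adjusted p = 0.0510). Ripk3 stood at 0.501 times the FPKM of Ripk1 in the LysM libraries and at 0.443 times in those labelled K2KO, a log2 difference of -0.18 between groups that overlapped (exact two-sided permutation test, p = 0.229, which stayed at 0.229 when adjusted). This difference turned to 0.13 after the correction, and the ratio carries the uncertainty of the Ripk1 values.

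**Figure D3:**
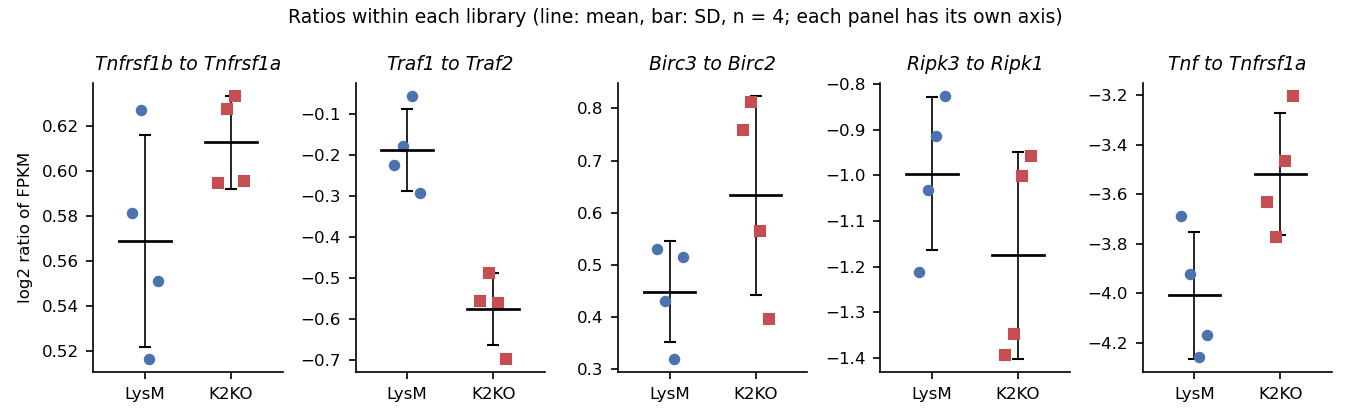
Log2 ratio of FPKM for 5 gene pairs in each library, with the mean as a line, the SD as a bar and a separate axis for each pair. The groups of Traf1 to Traf2 do not overlap, with mean ratios of 0.878 and 0.671 on the linear scale, and the groups of the other pairs do.

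By level, the order from the top was Tnfrsf1b, Tnfrsf1a, Tradd and Birc3 in both groups, and the ranges of these neighbors did not overlap. Tnfrsf1a stood 2.19 times above Tradd in the LysM libraries and 2.54 times in the libraries labelled K2KO. Below Birc3, the LysM libraries gave Ripk1, Birc2, Traf2, Traf1, Ripk3 and Tnf. Of these neighbors, Traf1 and Ripk3 alone had ranges that did not overlap (1.43 times). In the libraries labelled K2KO the order was Ripk1, Birc2, Traf2, Tnf, Ripk3 and Traf1, with Ripk1 1.51 times above Birc2 and no overlap, while the other neighbors overlapped. The place of Ripk1 is uncertain in both groups, since its reads may be shared with overlapping genes. Traf1 thus moved from above Ripk3 and Tnf to below them, although its range in the libraries labelled K2KO overlapped that of Ripk3.

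Across the settings the log2 fold changes of Traf1, Tradd, Tnf and Ripk1 kept their direction. Leaving out K2KO3 brought Ripk1 past the thresholds, while Traf1 and Tradd kept their calls there. Leaving out any of the other 7 libraries ended the call for Tradd, and for Traf1 only leaving out LysM3 did. Without LysM3 their log2 fold changes were still -0.53 and -0.25 (limma adjusted p = 0.0517 and 0.123). The number of all tested genes called was 337 without LysM3 and 2837 without K2KO3.

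**Figure D4:**
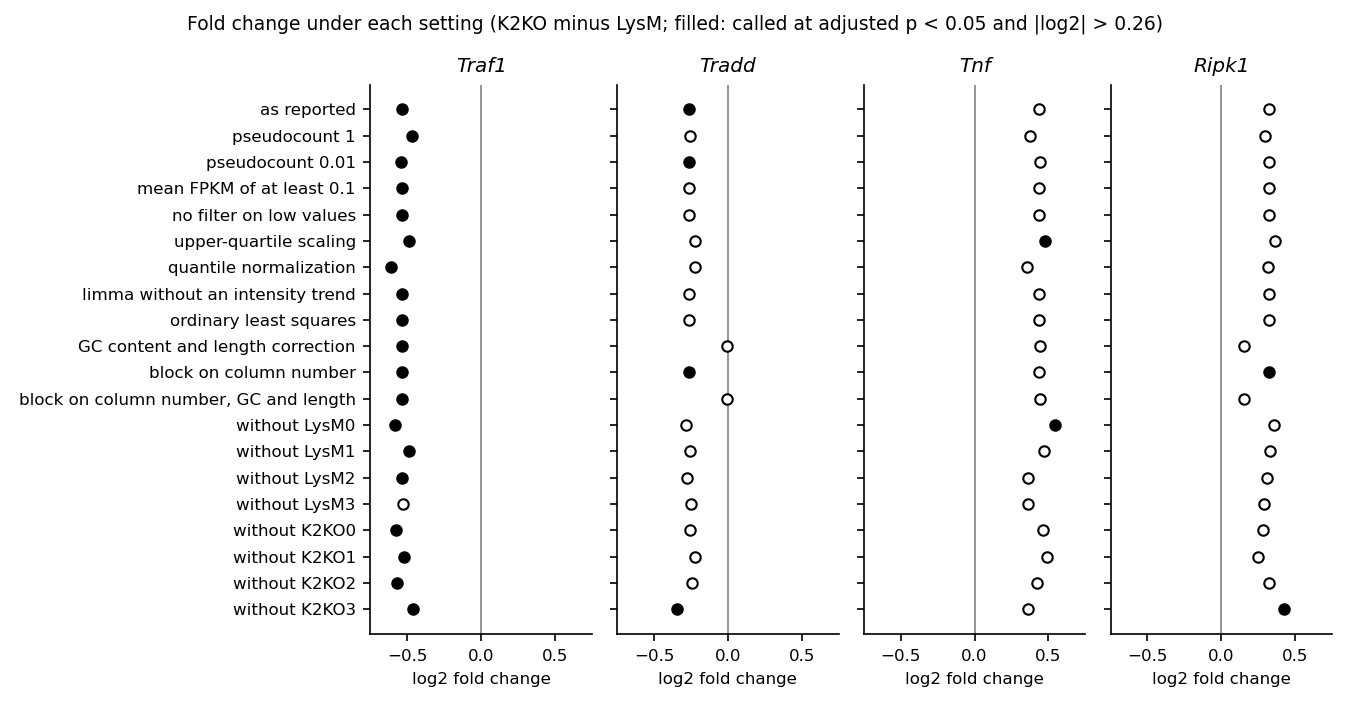
Log2 fold change (libraries labelled K2KO minus LysM) of 4 genes in the reported fit and in each setting that changes the fitted values, with filled points for values that met both thresholds. Traf1 is filled in all settings but the one without LysM3, and Tradd falls to -0.0066 with the GC and length correction.

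The wider pathway was read from 8 lists with 139 genes, of which 138 are in the table and 109 were tested. Of the 109, 13 rose and 13 fell in the libraries labelled K2KO, together 23.9% against 18.4% of all tested genes. After the GC and length correction 14 of the 109 were called, 13 of them among these 26, against 1029 of all 10920 tested genes. Without LysM3 the number was 3, against 337 of all 10920 tested genes. The median log2 fold change of the 109 was 0.032.

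At the level of ligands and receptors, 2 of the 5 tested other TNF superfamily ligands were lower (40%). Of the 12 tested other TNF receptors, 2 were higher (16.7%). These shares compare with 18.4% of all tested genes called in either direction. Tnfsf13 (APRIL, a B cell survival factor) fell from 36.9 to 28.2 FPKM (log2 fold change -0.39, limma adjusted p = 0.0244) and Tnfsf12 (TWEAK), the most abundant of the ligands, from 98.6 to 78.5 FPKM (-0.32, limma adjusted p = 0.0329). The genes share a locus in the table, and exons of both overlap Tnfsfm13 on the same strand, so their values are uncertain and the decreases may not be separate. With a library left out, the call for Tnfsf13 held in 3 of 8 fits and that for Tnfsf12 in 2 of 8. Tnfrsf23, a decoy receptor for TRAIL (log2 fold change 0.98, limma adjusted p = 0.0353), and Tnfrsf26, its neighbor on chromosome 7 (0.35, limma adjusted p = 0.0212), were the ones that rose. Both share a locus in the table with Tnfrsf22, another decoy receptor for TRAIL, which was at -0.54 (limma adjusted p = 0.0805) and was named after its values were seen, so the values of these 3 genes are uncertain. The calls for Tnfrsf23 and Tnfrsf26 each held in 4 of 8 fits with a library left out. Tnfrsf26 and Tnfsf12 were not called after the GC and length correction, at log2 fold changes of 0.14 and -0.084, and neither was Tnfrsf23 (0.93, limma adjusted p = 0.0626). Ltbr, the lymphotoxin β receptor and the most abundant of these receptors, had a log2 fold change of -0.042 (limma adjusted p = 0.588).

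Among the other TRAFs and their partners, 2 of 11 tested genes were higher and 0 lower (18.2%). This share was close to the 18.4% of all tested genes called in either direction. Tank, a TRAF-binding regulator of NF-κB and TBK1, rose from 6.66 to 10.5 FPKM (log2 fold change 0.64, limma adjusted p = 0.0135), and Traf6, the ligase below the Toll-like and interleukin-1 receptors, rose by 0.28 (limma adjusted p = 0.0296). Tank stayed called after the GC and length correction (0.44, limma adjusted p = 0.0391) and Traf6 did not (0.12). The call for Tank held in 6 of 8 fits with a library left out, and that for Traf6 in 2 of 8. Tifa, an adaptor of TRAF6 and the most abundant of this list, had a log2 fold change of 0.088 (limma adjusted p = 0.469).

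The genes that edit ubiquitin on the receptor complex had the highest share of the 8 lists, with 5 of 13 higher and 1 lower (46.2%). Of all tested genes 18.4% were called, 9.84% higher and 8.61% lower. Those higher included the E2 enzymes Ube2d3 (0.48, limma adjusted p = 0.0135) and Ube2v1 (0.44, limma adjusted p = 0.0296) and the deubiquitinase Cyld (0.45, limma adjusted p = 0.0112), which removes the chains that TRAF2 and its partners build. Cyld lies 16.4 Mb from Klf2 on the same chromosome. Rbck1 (HOIL-1, a subunit of the linear ubiquitin ligase) was lower (-0.30, limma adjusted p = 0.0364). The median log2 fold change of the list was nonetheless -0.11, and after the GC and length correction 2 of the 6 calls remained, Ube2d3 and Ube2v1, while Cyld (0.20, limma adjusted p = 0.0928) and Rbck1 (-0.15) were not called. Exons of Ube2v1 overlap Gm20431 on the same strand, so its values are uncertain, and its call held in 2 of 8 fits with a library left out, against 7 of 8 for Ube2d3. The call for Rbck1 held in 2 of these 8 fits and that for Cyld in all 8. Spata2, which recruits CYLD, had a limma adjusted p of 0.0861 before the GC and length correction and was called after it (0.32, limma adjusted p = 0.0383), and was named after its values were seen. With Spata2, 3 of the 13 genes were called after the correction, against 1029 of all 10920 tested genes.

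Of the 18 kinases and adaptors below the receptor, 3 were higher and 2 lower (27.8%), against 18.4% of all tested genes. The IKK subunit Ikbkg (NEMO) rose by 0.42 (limma adjusted p = 0.0216), and the JNK pathway kinases Mapk9 (0.33, limma adjusted p = 0.0123) and Map2k4 (0.29, limma adjusted p = 0.0277) rose. Ikbke, an IKK-related kinase, fell from 71.4 to 52.4 FPKM (-0.44, limma adjusted p = 0.0121) and Map3k5 (ASK1) by 0.40 (limma adjusted p = 0.0179). Mapkapk2, which acts below p38 and was the most abundant, had a log2 fold change of -0.22, under the size threshold. After the GC and length correction the calls were those of Ikbkg, Ikbke and Map3k5. Map2k4 then stood at 0.26 (limma adjusted p = 0.0537) and Mapk9 at 0.15 (limma adjusted p = 0.134). The call for Ikbke held in 8 of 8 fits with a library left out, and that for Mapk9 in 7 of 8. Those for Ikbkg and Map3k5 each held in 4 of 8, and that for Map2k4 in 3 of 8.

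Of the 14 genes of the apoptosis and necroptosis complexes, which RIPK1 and RIPK3 join, 0 passed in limma, against 18.4% of all tested genes. With ordinary least squares 0 of the 14 passed, against 746 of all 10920 tested genes. At an unadjusted p under 0.05 there were 2 (14.3%) by either method, against 37.8% of all tested genes in limma and 35.5% with ordinary least squares. Casp8, the caspase that starts the apoptosis branch, was one of them, with a limma adjusted p of 0.0347, groups that did not overlap and a log2 fold change of 0.21, under the size threshold, and it was named after its values were seen. After the GC and length correction the log2 fold change of Casp8 was 0.096 (limma adjusted p = 0.193). Zbp1, a nucleic acid sensor that binds RIPK3 and the most abundant of the list, varied widely between libraries of a group, at 52.5 ± 20.8 against 40.0 ± 14.0 FPKM (SD, n = 4 each; log2 fold change -0.38, limma adjusted p = 0.460), and its log2 fold change ranged from -0.67 to -0.086 with a library left out.

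For shedding of TNF and control of its transcript, 2 of 11 tested genes were lower and 0 higher (18.2%). This share was close to the 18.4% of all tested genes called in either direction. Zfp36, whose product binds AU-rich elements such as that of Tnf, fell from 478 ± 31.4 to 360 ± 55.0 FPKM (SD, n = 4 each; log2 fold change -0.42, limma adjusted p = 0.0292). Its call held in 7 of 12 other settings and in 3 of 8 fits with a library left out, and its log2 fold change was -0.23 with quantile normalization. Rhbdf2 (iRhom2), which the TNF sheddase needs to mature, was lower by a log2 fold change of -0.27 (limma adjusted p = 0.0416), with 1 call in 8 fits with a library left out and none after the GC and length correction (-0.20, limma adjusted p = 0.0845). The sheddase itself, Adam17, was at a log2 fold change of 0.098 (limma adjusted p = 0.356), which turned to -0.061 with the GC and length correction, named after its values were seen.

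Of 25 tested genes that TNF induces in macrophages, 1 was higher and 6 were lower (28%, median log2 fold change -0.038). Of all tested genes 18.4% were called, 9.84% higher and 8.61% lower, and the median log2 fold change was 0.011. Those lower included the chemokines Ccl2 (-0.96, limma adjusted p = 0.0335), Ccl3 (-0.74, limma adjusted p = 0.0166) and Ccl4 (-0.70, limma adjusted p = 0.00491), and the one higher was the adhesion molecule Vcam1 (1.45, limma adjusted p = 0.0126). Junb, a transcription factor and the most abundant, was at -0.18 (limma adjusted p = 0.179). The groups of Ccl2 overlapped, with LysM0 at 8.23 FPKM against 5.90 to 9.37 FPKM in the libraries labelled K2KO, and its call held in 8 of 12 other settings and in 2 of 8 fits with a library left out. The call for Ccl4 held in all 12 and all 8, and with a library left out that for Ccl3 held in 5 of 8 fits and that for Vcam1 in 7 of 8. These genes also respond to LPS and other stimuli.

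**Figure D5:**
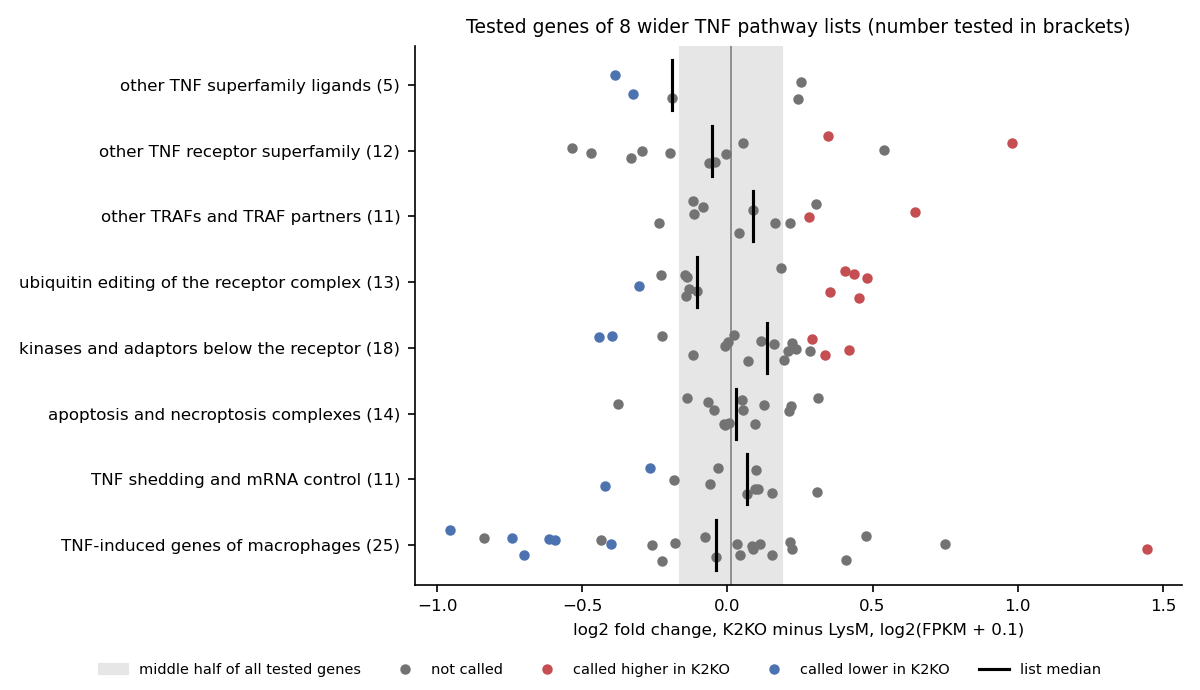
Log2 fold change (libraries labelled K2KO minus LysM) of each tested gene in 8 lists of the TNF pathway, with calls in red (higher) and blue (lower), list medians as black bars and the range between the quartiles of all tested genes (-0.16 to 0.19) in grey. The ubiquitin editing list has 5 of 13 genes called higher, against 9.84% of all tested genes. The apoptosis and necroptosis list has 0 of 14 called, against 18.4% of all tested genes.

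Markers of other cell types were read beside these values, since in bulk RNA fewer cells of a type and less RNA per cell cannot be told apart. The 8 macrophage markers summed to 3927 to 4141 FPKM in the LysM libraries and 3683 to 3826 FPKM in the libraries labelled K2KO, with Cd68 as the most abundant (mean 1807 FPKM). The sums of the libraries labelled K2KO were thus lower, without overlap. Of these markers Mertk was higher, at 14.2 against 18.3 FPKM (log2 fold change 0.36, limma adjusted p = 0.0285), and Lyz2, the gene that carries Cre, lower (log2 fold change -0.49, limma adjusted p = 0.0260). The call for Mertk held in 2 of 8 fits with a library left out and was lost after the GC and length correction (0.21, limma adjusted p = 0.114), and that for Lyz2 held in 4 of 8 and after the correction. Cd14, named after its values were seen, was at 1028 against 829 FPKM, with groups that did not overlap. It was not called (log2 fold change -0.32, limma adjusted p = 0.0630). The 8 neutrophil markers summed to 181 to 312 and 171 to 299 FPKM, led by S100a9, and 1 of them, Camp, was lower (-1.14, limma adjusted p = 0.0178). The 5 T cell markers summed to 1.78 to 2.53 and 5.19 to 5.92 FPKM, nearly all of it Cd4, which rose from 1.92 to 5.15 FPKM (limma adjusted p = 4.34e-04), while Cd3d, Cd3e, Cd3g and Cd8a had group means of at most 0.134 FPKM. Monocyte markers summed to 26.3 to 42.7 and 35.5 to 43.4 FPKM, led by Ccr2, and none of the 3 tested was called. Cycling cell markers, led by Birc5, summed to 5.86 to 7.67 and 4.80 to 7.10 FPKM. Sums of the dendritic, B, mast, stromal and erythroid markers were at most 5.28 FPKM in any library, neither of those tested, Ccr7 and Cd79b, was called, and 1 of the erythroid markers is not in the table. No listed marker was at 0 in all 8 libraries. The part of these cell types in the values of the 10 genes was not tested.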

How the data were processed

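Total RNA of BMDMs from 4 LysM and 4 K2KO mice was sequenced as stranded libraries. The authors aligned reads to mm10 and deposited one table of FPKM per gene, computed with Cufflinks, with no pooling of mice. The aligner is TopHat2 in the study's methods and STAR in the submitters' processing notes, which also name Cuffdiff, and versions are not given in the sources used here. Labels and methods also name different RNA isolation kits. Columns were mapped to a genotype, not to a mouse. Read counts are unknown, so no count test, interval of counting or detection limit was used. Of the genes listed, 23645 were matched to GENCODE M21 on GRCm38, and 34 symbols occur more than once.

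Values were compared as log2(FPKM + 0.1) with limma 3.58.1 (lmFit, eBayes with trend) in R 4.3.3 for genes whose mean FPKM reached 1, without covariates. The pseudocount lowers the fold change of low genes. The Benjamini-Hochberg adjustment covered all tested genes. Ratios and single values were compared by exact permutation of the libraries (70 arrangements, smallest p 0.0286). GC content and length were corrected by a local regression in each library (span 0.3). Sequences are from RefSeq (promoter windows) and GRCm38. The procedure was tested on simulated data.

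The 10 genes, the 8 lists and the markers were chosen with earlier results of these data known. Named from each list were up to 3 called genes per direction by size of change and the most abundant tested gene, and for Tnf and each called gene of the 10 the 3 genes most like it over the libraries. Alternatives were other pseudocounts, filters, scalings and variance models, no fold threshold, the GC and length correction, a block on the column number and leaving out each library. One result of a single gene of the apoptosis and necroptosis list is not reported here.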

Additional observations from a re-analysis of the deposited data

Results flagged for a closer look

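Of 84 groups of 4 libraries examined with Dixon's criterion, 3 had one library set apart from the rest of its group. By chance about 1 in 20 groups, or 4.2, would meet it. Tnfrsf1a was at 71.7 FPKM in LysM3, below the 75.9 to 76.6 FPKM of the other LysM libraries. Ltbr was at 33.6 FPKM in K2KO2, above 32.8 to 32.9 FPKM in the other libraries labelled K2KO. Rbck1 was at 51.2 FPKM in K2KO3, above 40.9 to 42.1 FPKM in the others.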

How the results depend on the processing

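The number of the 10 genes called was 2. It was 1 with a pseudocount of 1, a filter at a mean FPKM of at least 0.1, no filter, quantile normalization, limma without a trend, ordinary least squares, the GC and length correction and the replicate block with that correction, and 0 (without LysM3) to 3 (without K2KO3) with a library left out. All tested genes called numbered 2014, against 1090 with no filter, 746 with ordinary least squares, 1029 with the GC and length correction, 944 with the block and the correction, and 337 (without LysM3) to 2837 (without K2KO3) with a library left out. Genes called in the 8 lists numbered 26, against 13, 10, 14 and 13 in the same order, and 3 to 34 with a library left out. Upper-quartile scaling moved the share of calls that were higher from 53.3% to 64.1%.

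Directions reversed only for values that were not called. Tnfrsf1a turned to 0.090 with quantile normalization and to 0.17 with the GC and length correction, with and without the block. Tnfrsf1b turned to 0.042 with upper-quartile scaling and with the GC and length correction, with and without the block, and to 0.14 with quantile normalization, and ranged from -0.039 to 0.035 with a library left out. Birc2 turned to 0.0030 with upper-quartile scaling and ranged from -0.11 to 0.028 with a library left out. Ltbr turned to 0.0016 with upper-quartile scaling, 0.014 with quantile normalization and 0.17 with the GC and length correction, and Junb to 0.057 with quantile normalization and 0.053 with the correction, both the same with the block. The ratio of Tnfrsf1b to Tnfrsf1a turned to -0.13 and that of Ripk3 to Ripk1 to 0.13 with the correction. The cause was not tested.

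The labels do not say whether libraries with the same column number belong together. With levels taken relative to the group mean, correlations between libraries of the same number were -0.070, 0.020, 0.073 and -0.057. Those between different numbers ranged from -0.14 to 0.18. The values show no likeness by number, but they cannot tell how the experiment was laid out. With the replicate block 2057 genes were called, and 3 of the 10, with Ripk1 added (limma adjusted p = 0.0354). Each named gene was compared with its reported value once in each of 19 alternatives, so a gene can be counted up to 19 times below. Of these values, 529 kept direction and side of the threshold, 150 lost and 4 gained a call, and 20 reversed. The table holds no counts, so counting error could not be given, and the rough relative depth did not separate the groups (exact permutation p = 0.457).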
